A study of Mus musculus with 27 samples.

Results

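Transcript levels of 7 genes of MHC class II antigen presentation were followed through injury and repair of mouse skeletal muscle. The 7 genes were chosen by name, with earlier results of these data known, and all 7 were found among the 55852 entries of the table of injured muscle and the 55677 entries of the table with uninjured muscle. They are H2-Aa, H2-Ab1 and H2-Eb1, which encode chains of the class II molecules, Cd74, which encodes the invariant chain, H2-DMa and H2-DMb1, which encode the chains of a peptide editor, and Ciita, which encodes the class II transactivator. All 7 passed the filter on low values in both tables.

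WT C57BL/6J mice and global Gsdme KO mice received cardiotoxin, a snake venom toxin that lyses muscle fibres, and muscle was taken on 4 days, written D1, D4, D7 and D14 for the number of days after the toxin. Each of the 8 combinations of genotype and day had 3 libraries, which gave 24 injured libraries, and 3 further WT libraries came from control muscle without the toxin, which the methods describe as the leg opposite to the injured one on D1. The sample titles and the study's methods call the second genotype KO, whereas its genotype label reads knockdown. The methods describe male mice and toxin given into the gastrocnemius, while age was not stated. Control muscle was listed in a separate table together with the WT D1 libraries, so that it was compared within that table. The methods describe 2 rounds of sequencing that the labels do not mark, and round and group cannot be told apart for control and D1 muscle. All values are TPM, transcript abundances scaled to transcript length and to a fixed total per library, so that levels can be set side by side between genes. Read depth is unknown, and no label states that the 3 libraries of a group came from separate mice, so that p-values measure the spread between these libraries. Genes with at least 1 TPM in at least 3 libraries were tested by limma on log2(TPM + 1), 15718 in the injured table and 13041 in the other. A gene was called, or is said to have risen or fallen, where the p-value adjusted by the Benjamini-Hochberg method over all tested genes was under 0.05.

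MHC class II molecules are heterodimers on the surface of macrophages, dendritic cells and B cells that show peptides from the endocytic route to CD4+ T cells. New dimers leave the endoplasmic reticulum bound to the invariant chain, which fills the groove and is cut by lysosomal proteases, and H2-DM then exchanges the remaining fragment for other peptides. The transactivator does not bind DNA itself. It is recruited by the RFX, CREB and NF-Y factors that sit on the X and Y boxes of class II promoters, and interferon gamma is its best known inducer. Uninjured muscle holds few cells of this kind, and macrophages enter in large numbers after injury.

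Of the 7 genes, 5 lie in the MHC on mouse chromosome 17 of the GRCm38 build, the same build as the mm10 named in the submitters' processing notes. In GENCODE coordinates these are H2-DMa at chr17:34119541-34139101, H2-DMb1 at chr17:34153072-34160230, H2-Ab1 at chr17:34257689-34269419, H2-Aa at chr17:34282744-34287823 on the minus strand and H2-Eb1 at chr17:34305867-34316674, with all but H2-Aa on the plus strand. Ciita lies at chr16:10480059-10528418 on the plus strand.

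The promoters are shown as a description, and their part in the levels of the 7 genes was not tested. RefSeq promoter windows of GRCm38.p6, from 250 bases before to 50 bases after the start, were at hand for 4 of the 7 genes (H2-Aa, H2-Eb1, H2-DMa and H2-DMb1) and for 4 of the 5 other class II chain genes in the files (H2-Oa, H2-Ob, H2-DMb2 and H2-Eb2). Windows for H2-Ab1, Cd74 and Ciita were not used here. The letters GNAAC, which occur in X boxes, followed after 30 to 35 bases by ATTGG, the core of a Y box, were found on the strand of the gene in H2-Aa, H2-Eb1 and H2-DMb1 and in H2-Oa, H2-Ob and H2-Eb2. They were not found in the windows of H2-DMa (chr17:34122582-34122881 and chr17:34125268-34125567) and H2-DMb2 (chr17:34144999-34145298). These windows lie inside the GENCODE spans, which start at 34119541 for H2-DMa and at 34143307 for H2-DMb2. Sequence at those outer starts was not looked at. Of all 32851 promoter windows, 1.04% held the pair on either strand and 0.493% on the strand of the gene, while GNAAC alone stood in 84.8% and ATTGG alone in 37.4% on either strand. The motif was chosen with these sequences in view, and a match is a description of the letters. Stretches of 3 members and 2 related chains are printed 5′ to 3′ on the strand of the gene, with GNAAC and ATTGG in capitals. They lie at chr17:34287855-34287919 (minus strand) for H2-Aa, chr17:34305761-34305824 for H2-Eb1, chr17:34153082-34153146 for H2-DMb1, chr17:34092288-34092352 for H2-Oa and chr17:34238803-34238864 for H2-Ob.
H2-Aa: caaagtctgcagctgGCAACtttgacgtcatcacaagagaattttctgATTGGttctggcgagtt
H2-Eb1: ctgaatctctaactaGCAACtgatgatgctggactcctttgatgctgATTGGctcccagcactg
H2-DMb1: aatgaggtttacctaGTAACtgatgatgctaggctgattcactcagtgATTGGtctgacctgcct
H2-Oa: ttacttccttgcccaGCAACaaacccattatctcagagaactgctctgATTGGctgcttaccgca
H2-Ob: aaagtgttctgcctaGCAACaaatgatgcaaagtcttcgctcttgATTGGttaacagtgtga
The pair was 33 bases apart, start to start, in H2-Aa, H2-DMb1 and H2-Oa, 32 bases apart in H2-Eb1 and 30 bases apart in H2-Ob.

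As a check of the genotype labels, Gsdme was at 2.76, 4.85 and 3.16 TPM in the WT D1 libraries and at 1.53, 1.28 and 2.17 TPM in the KO D1 libraries. The KO libraries also lay below the WT libraries on D4 (1.36, 1.00 and 1.64 against 3.02, 2.67 and 2.63 TPM) and D7 (1.37, 1.01 and 0.95 against 2.51, 1.80 and 2.15 TPM). On D14 the groups overlapped, with 1.96, 1.77 and 1.27 TPM in KO and 1.46, 2.21 and 2.26 TPM in WT. Averaged over days the log2 difference was −0.55, with an exact two-sided permutation p of 8.75e-05 and a limma adjusted p of 0.0664. The KO libraries were therefore lower but not at 0.

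A few libraries stood apart from the other 2 of their group. In 6 of the 8 injured groups the same library had the lowest value for all 7 class II genes, namely replicate 3 of WT D1, KO D1 and WT D14, replicate 2 of KO D4 and KO D7, and replicate 1 of KO D14. Not each of these lay far from the others. In KO D1 replicate 3 Cd74 was at 327 TPM, against 434 and 349 TPM. Its mean log2(TPM + 1) over 7 leukocyte genes was the highest of its group, at 7.89 against 7.54 and 6.81. The summed TPM of 7 leukocyte genes was 155 in KO D4 replicate 2, against 845 and 1072 in the other KO D4 libraries, and the summed TPM of 8 muscle fibre genes reached its group's highest value of 119690 there. In WT D1 replicate 3 the leukocyte sum was 431, against 1215 and 2203 in the others. In KO D7 replicate 2 it was 183, against 389 and 347, and the muscle fibre sum was 182396, against 115689 and 118470. Limma results of the 7 class II genes that rest on these libraries are given with and without them. Results for lists of other genes were fitted with all libraries only. The part of leukocyte content in these libraries was not tested. In whole muscle, fewer cells of a type and less RNA per cell cannot be told apart.

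The 7 genes kept one order of level through injury. In all 24 injured libraries Cd74 was highest, followed by H2-Ab1, H2-Aa, H2-Eb1, H2-DMa, H2-DMb1 and Ciita. Over these libraries Cd74 ranged from 126 to 1643 TPM with a median of 477 TPM. The 3 chain genes had medians of 259 TPM for H2-Ab1, 210 TPM for H2-Aa and 188 TPM for H2-Eb1. The medians of the editor chains were 27.4 TPM for H2-DMa and 23.5 TPM for H2-DMb1, and that of Ciita was 2.91 TPM. Neighbours in this order overlapped over libraries, but within a library H2-DMa was at most 0.157 times H2-Ab1. The highest library exceeded the lowest 13.0-fold for Cd74 and 21.5-fold for Ciita, with the other 5 genes in between. In control muscle the order of the 3 chain genes was not fixed, and 1 of 3 control libraries had the full order.

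**Figure D1:**
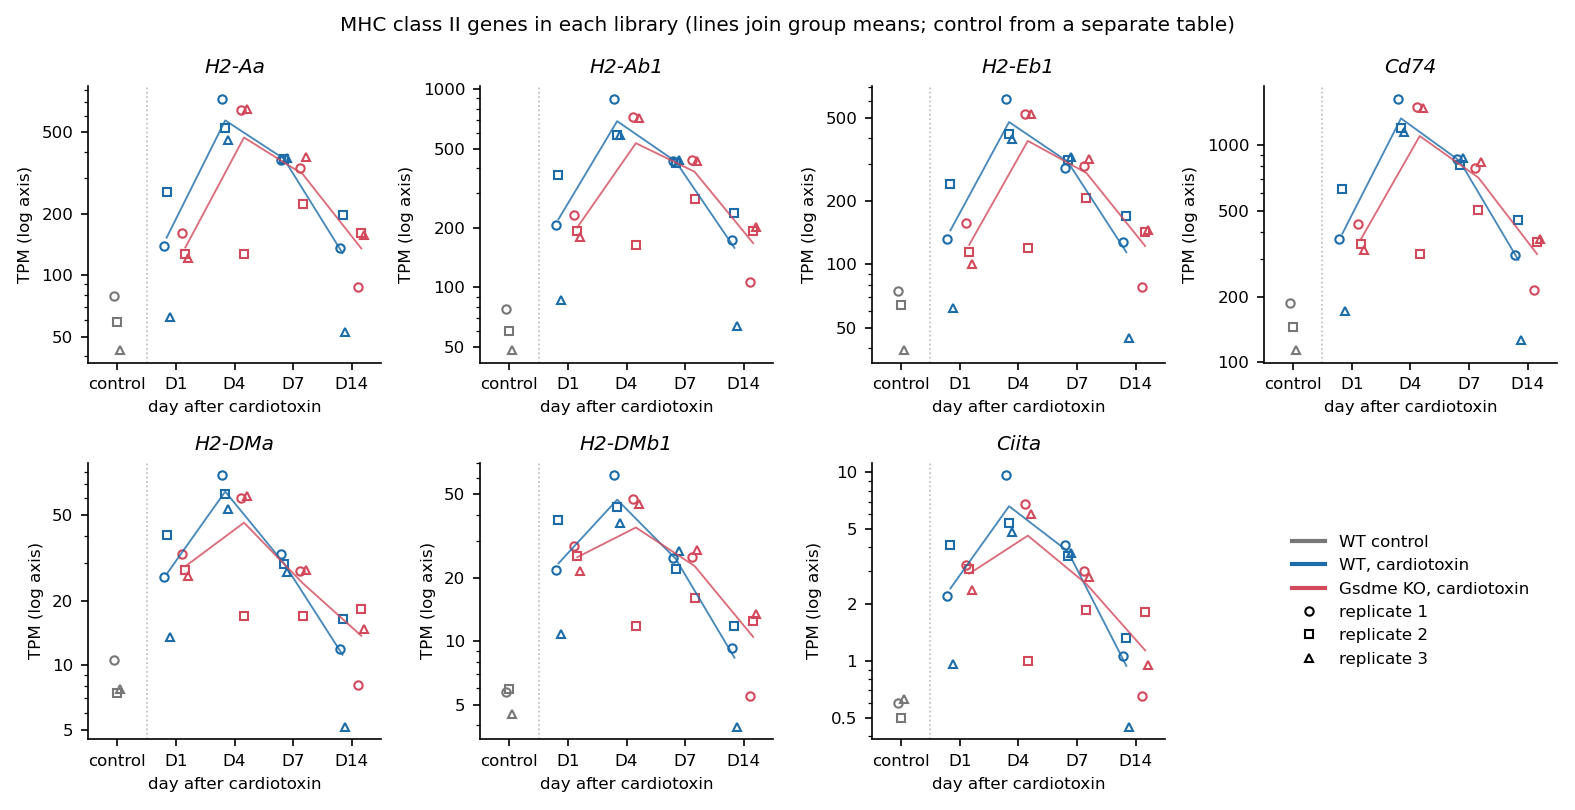
Level of each of the 7 class II genes in TPM, on a log axis with its own range per gene, in each library by day after cardiotoxin, with 3 libraries per group and lines through the group means. WT D4 libraries are the highest group for all 7 genes by mean, and KO D4 replicate 2 sits far below the other KO D4 libraries.

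The invariant chain gene Cd74 was at 188, 145 and 113 TPM in control muscle and at 371, 632 and 172 TPM in WT muscle on D1, in the table that holds both. The groups overlapped in WT D1 replicate 3, and the limma log2 difference was 1.23 ± 0.43 (SE, n = 3 and 3, adjusted p = 0.0348). Ciita was at 0.60, 0.50 and 0.63 TPM in control muscle and at 2.99, 7.14 and 1.00 TPM in WT D1 muscle, without overlap, a log2 difference of 1.35 ± 0.44 (limma adjusted p = 0.0280). The same WT D1 libraries had Ciita at 2.21, 4.11 and 0.96 TPM in the injured table, up to 73.7% apart between the tables, whereas the other 6 genes differed by at most 0.279%. The level of Ciita on D1 thus depended on the table.

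Of the 7 genes, 5 rose from control to WT D1 (Cd74, Ciita, H2-Ab1, H2-DMa and H2-DMb1), and 4 of these did not overlap between groups. H2-DMb1 had the largest log2 difference at 1.78 ± 0.39 (limma adjusted p = 0.00591). H2-Aa and H2-Eb1 had log2 differences of 1.14 and 1.13, with limma adjusted p of 0.0583 and 0.0587. Control and injured muscle may stem from the same mice, although no label ties the replicate numbers to mice. With the replicate number as a block all 7 genes were called, with limma adjusted p of 0.00846 for H2-Aa and 0.00559 for H2-Eb1, while 53.3% of all tested genes were called in either direction, against 61.1% without the block. This count is no result about class II genes, since 55.4% of all tested genes were called higher and 64.2% did not overlap upwards in the same comparison. The median log2 difference was 1.35 over the 7 genes and 0.66 over all tested genes. With median-of-ratios scaling, only H2-DMb1 was still called, and 42.4% of all tested genes were called in either direction. Leukocyte genes were all 7 called higher with a median log2 difference of 4.02, and macrophage genes all 8 with a median of 1.99.

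From D1 to D4 the class II genes had the largest median difference of the 3 steps in WT muscle. Cd74 went from 371, 631 and 171 TPM on D1 to 1643, 1201 and 1149 TPM on D4, a 3.83-fold difference on the log2(TPM + 1) scale. H2-Aa, the alpha chain of the I-A molecule, went from 139, 255 and 62.4 TPM to 730, 525 and 458 TPM, a 4.26-fold difference. Ciita went from 2.21, 4.11 and 0.96 TPM to 9.68, 5.37 and 4.81 TPM, a 2.31-fold difference. In each of these 3 genes every WT D4 library lay above every WT D1 library.

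In limma, 6 of the 7 genes rose from D1 to D4 in WT, where 14.6% of all tested genes were called higher. The same 6 genes did not overlap, against 22.1% of all tested genes that did not overlap upwards. The log2 difference was 2.09 ± 0.56 for H2-Aa (limma adjusted p = 0.0115), 1.94 ± 0.53 for Cd74 (limma adjusted p = 0.0135) and 1.21 ± 0.41 for Ciita (limma adjusted p = 0.0449). H2-Eb1 and H2-Ab1 had log2 differences of 1.89 and 1.84, and the editor chain gene H2-DMa one of 1.36. H2-DMb1 did not pass, with a log2 difference of 1.11 (limma adjusted p = 0.113). Its WT D1 libraries at 21.8, 37.8 and 10.8 TPM reached into the D4 values of 61.7, 43.3 and 36.4 TPM. The median over the 7 genes was 1.84, against 0.17 over all tested genes. The calls rested on single libraries, since 0 of 7 passed without WT D1 replicate 3, where the median was 1.29, and 1 of 7 passed without WT D4 replicate 1, where it was 1.64. Of all tested genes 13.2% and 15.4% were called in these fits in either direction, against 19.8% with all libraries. In a fit of the 6 WT D1 and D4 libraries alone, 0 of 7 passed, and 7.4% of all tested genes were called.

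The class II genes differed here from leukocyte genes at large by their values, although that difference was not tested. Of 7 leukocyte genes 0 were called between D1 and D4 in WT by limma and 0 had an unadjusted p under 0.05, with a median log2 difference of 0.22. Of 7 class II peptide loading genes (cathepsins, Lgmn and the thiol reductase gene Ifi30) 0 were called and 1 had an unadjusted limma p under 0.05, with a median of 0.25. Of 10 genes of class I antigen presentation 0 were called by limma and 0 had an unadjusted p under 0.05, with a median of 0.30. Of 8 macrophage genes 4 rose, which were the complement genes C1qa, C1qb and C1qc and the receptor gene Csf1r, with log2 differences of 1.90, 1.74, 1.93 and 1.52. The median over the macrophage list was 1.21. In this list 2 genes had negative differences, down to −0.66, and 0 were called lower. Of 8 muscle fibre genes 5 fell in the same step, with a median of −1.10 over the list, and they include the creatine kinase gene Ckm (log2 difference −1.32) and the myosin gene Myh4 (−1.17). The part of macrophage or muscle fibre content in the class II values was not tested.

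In KO muscle the D1 to D4 step had the same sign in all 7 genes and 0 of them passed. Cd74 was at 434, 349 and 327 TPM on D1 and at 1510, 316 and 1485 TPM on D4. Replicates 1 and 3 of D4 lay in the range of WT D4, and replicate 2 lay below every KO D1 library. The log2 difference was 1.28 ± 0.53 for Cd74 (limma adjusted p = 0.0907) and 1.46 ± 0.56 for H2-Aa (limma adjusted p = 0.0682). At an unadjusted limma p under 0.05, 4 of the 7 genes passed, as did 36.4% of all tested genes, while 7.18% of all tested genes were called higher after adjustment. The median over the 7 genes was 1.13, against −0.15 over all tested genes. Without KO D4 replicate 2, the median was 1.85 and 4 genes were called, namely Cd74, H2-Aa, H2-Eb1 and H2-Ab1. In that fit 14.6% of all tested genes were called in either direction, against 19.4% with all libraries. With all libraries, 3 of the 7 leukocyte genes fell in the same step, with a median of −1.69 over the list. Of the 15718 tested genes, 1921 were called lower in it. The mean log2(TPM + 1) over the leukocyte list was 6.64, 3.92 and 6.29 in KO D4, against 7.54, 6.81 and 7.89 in KO D1. This list was not fitted without KO D4 replicate 2.

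**Figure D2:**
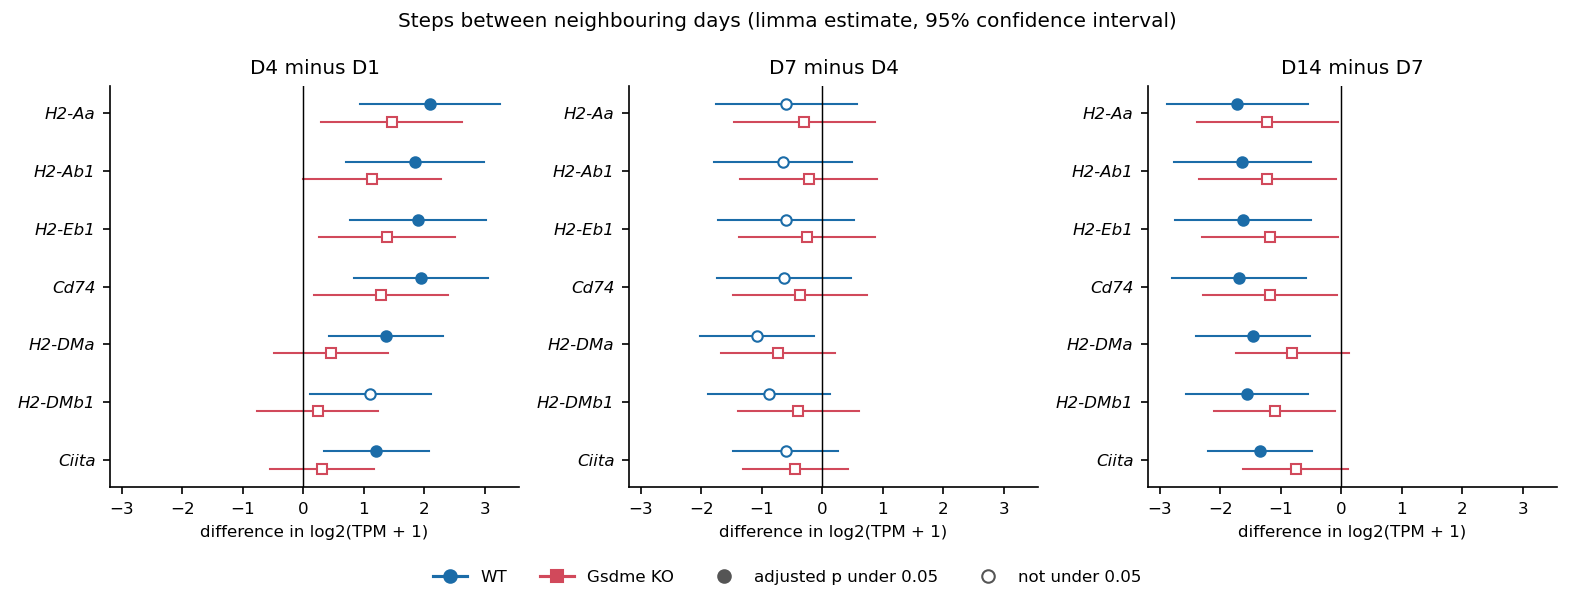
Difference in log2(TPM + 1) between neighbouring days for each class II gene in WT and Gsdme KO muscle, with limma 95% confidence intervals and filled points where the adjusted p was under 0.05. Filled points are 6 of 7 WT genes for D4 minus D1, all 7 WT genes for D14 minus D7, and none in KO.

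Between D4 and D7 the WT values drew together. Cd74 was at 864, 807 and 872 TPM on D7, below all 3 D4 libraries, and H2-DMa went from 77.0, 63.0 and 53.6 TPM to 32.9, 29.7 and 27.1 TPM. All 7 genes were lower on D7 without overlap, as were 33.2% of all tested genes. None of the 7 passed in limma, where 9.31% of all tested genes were called lower, and 1 of 7 (H2-DMa, log2 difference −1.07, adjusted p = 0.106) had an unadjusted p under 0.05, as did 33.5% of all tested genes. The median over the 7 genes was −0.63, against −0.24 over all tested genes. In KO, 0 of 7 genes were called and 0 of 7 had an unadjusted limma p under 0.05, in a comparison where 0% of all tested genes were called and 9.89% had such a p. The KO median was −0.36. It was −1.08 without KO D4 replicate 2, where 1 of 7 genes and 8.75% of all tested genes were called. It was 0.0146 and 0.00250 without KO D4 replicates 1 and 3, so that its sign rested on single libraries.

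From D7 to D14 all 7 genes fell in WT muscle. Cd74 was at 310, 451 and 126 TPM on D14, H2-Ab1, the beta chain of I-A, went from 433, 425 and 439 TPM to 175, 237 and 64.2 TPM, and Ciita went from 4.11, 3.61 and 3.75 TPM to 1.06, 1.32 and 0.45 TPM. Each D14 library lay below each D7 library in all 7 genes, as it did in 58.9% of all tested genes. The log2 differences were −1.70 ± 0.53 for Cd74 (limma adjusted p = 0.0243), −1.63 ± 0.54 for H2-Ab1 (limma adjusted p = 0.0307) and −1.34 ± 0.41 for Ciita (limma adjusted p = 0.0232). For the others they lay between −1.72 for H2-Aa and −1.46 for H2-DMa. In this comparison 30.9% of all tested genes were called lower, and the median was −1.62 over the 7 genes and −0.45 over all. The lists of leukocyte (7 of 7 lower, median −2.09), macrophage (7 of 8, median −2.09) and class I genes (10 of 10, median −1.26) went the same way, and their part in the class II values was not tested. The count fell to 0 of 7 without WT D14 replicate 3 (median −1.14) and without WT D7 replicate 1 (median −1.63), where calls over all tested genes in either direction fell from 31.8% to 1.82% and 4.01%. It fell to 2 of 7 without WT D7 replicate 2 or 3, and to 1 of 7 with median-of-ratios scaling. Of all tested genes 20.9%, 23.7% and 13.7% were called in these fits.

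In KO muscle the D7 to D14 step had the same sign in all 7 genes. Cd74 went from 786, 503 and 837 TPM to 216, 358 and 370 TPM, with every D14 library below every D7 library. Ciita went from 3.02, 1.87 and 2.79 TPM to 0.65, 1.82 and 0.95 TPM. Of the 7 genes, 6 did not overlap (all but H2-DMa), as did 25.7% of all tested genes in that direction. None was called by limma, where 0.477% of all tested genes were called lower, while 5 of 7 and 19.3% of all tested genes had an unadjusted p under 0.05. The log2 difference was −1.18 ± 0.53 for Cd74 (limma adjusted p = 0.239), and the median was −1.18 over the 7 genes and −0.19 over all.

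The comparison of genotypes asked whether class II genes differed between Gsdme KO and WT muscle on the same day. On D1, 0 of 7 genes were called by limma, where 0.00636% of all tested genes were called. Cd74 was at 434, 349 and 327 TPM in KO, all inside the WT range of 171 to 631 TPM, with a log2 difference of 0.10 ± 0.53 (SE). On D4, 0 of 7 were called, as were 0% of all tested genes. The median over the 7 genes was −0.61 and that over all tested genes −0.28. This value rested on KO D4 replicate 2, as the median was 0.09 without it. Ciita on D4 was at 6.82, 1.00 and 6.05 TPM in KO and 9.68, 5.37 and 4.81 TPM in WT, with a log2 difference of −0.61 (95% confidence interval −1.47 to 0.25).

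On D7 the KO libraries of Ciita, at 3.02, 1.87 and 2.79 TPM, lay below the WT libraries at 4.11, 3.61 and 3.75 TPM. This was the only one of the 7 genes without overlap between genotypes on any day, and 14.6% of all tested genes did not overlap in that direction on D7. The log2 difference was −0.45 ± 0.41 (limma adjusted p = 0.776). For Cd74 on D7 it was −0.29 (95% confidence interval −1.40 to 0.81), and the median over the 7 genes was −0.28, against −0.19 over all tested genes, and −0.0591 without KO D7 replicate 2. On D14 the median was 0.23 over the 7 genes and 0.08 over all, and −0.29 over the 7 genes without WT D14 replicate 3. Again 0 of 7 were called on D7 and on D14, as were 0% of all tested genes.

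Averaged over the 4 days, the log2 differences of the 7 genes lay between −0.16 and −0.05, and 0 of 7 were called, where 0.00636% of all tested genes were. The average difference of Cd74 was −0.13 (95% confidence interval −0.68 to 0.42), with an exact two-sided permutation p of 0.654 over 160000 assignments of genotype within days. For Ciita it was −0.16 (−0.59 to 0.27), with an exact permutation p of 0.502. In none of the 5 genotype comparisons did a class II gene reach an unadjusted limma p under 0.05. Among all tested genes 5.38% did so on D1, 22.7% on D4, 3.06% on D7, 2.06% on D14 and 3.54% on average. A limma F test of whether the genotype difference varied between days called 0 of 7 genes, and 0% of all tested genes, of which 7.65% had an unadjusted p under 0.05. Over the 7 genes and 4 days the 95% confidence intervals reached from −1.76 (H2-Ab1 on D4) to 1.38 (H2-Aa on D14) on the log2 scale. They were narrower for Ciita, at −0.73 to 0.99 on D14. The lack of calls does not exclude a genotype difference inside the interval of its own gene and day.

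**Figure D3:**
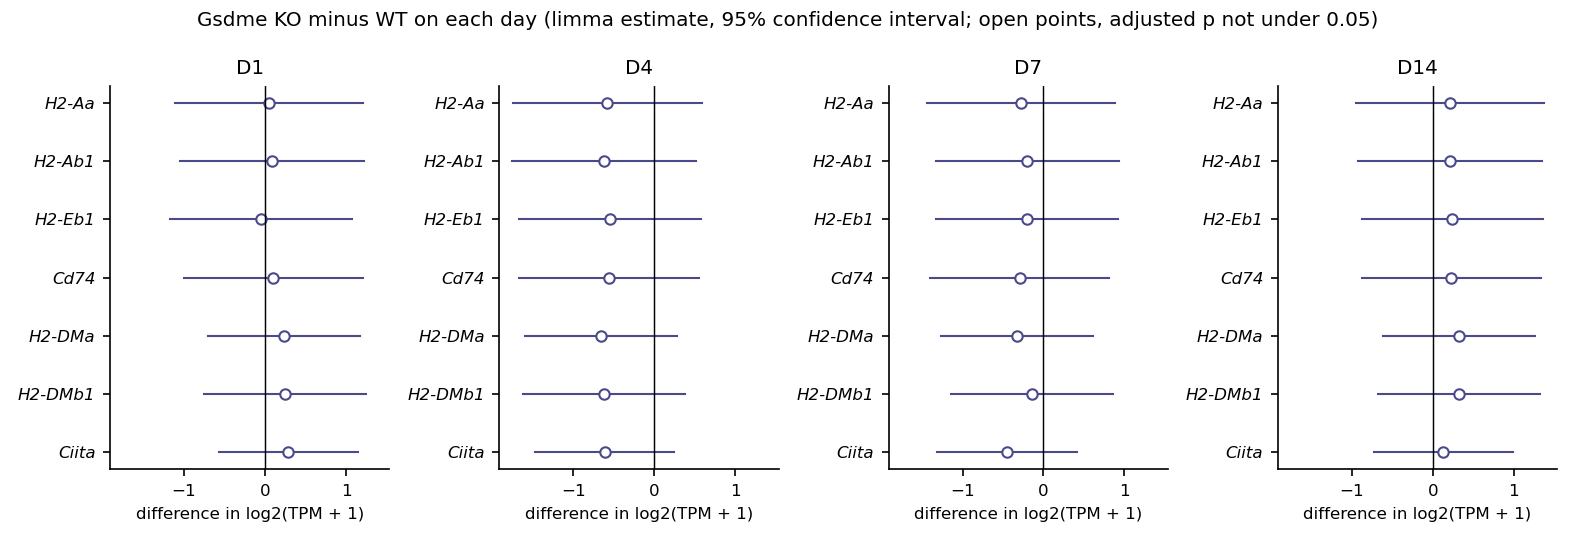
Gsdme KO minus WT difference in log2(TPM + 1) for each class II gene on D1, D4, D7 and D14, with limma 95% confidence intervals from 3 libraries per group. Every interval spans 0, and the medians over the 7 genes are 0.10, −0.61, −0.28 and 0.23.

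**Figure D4:**
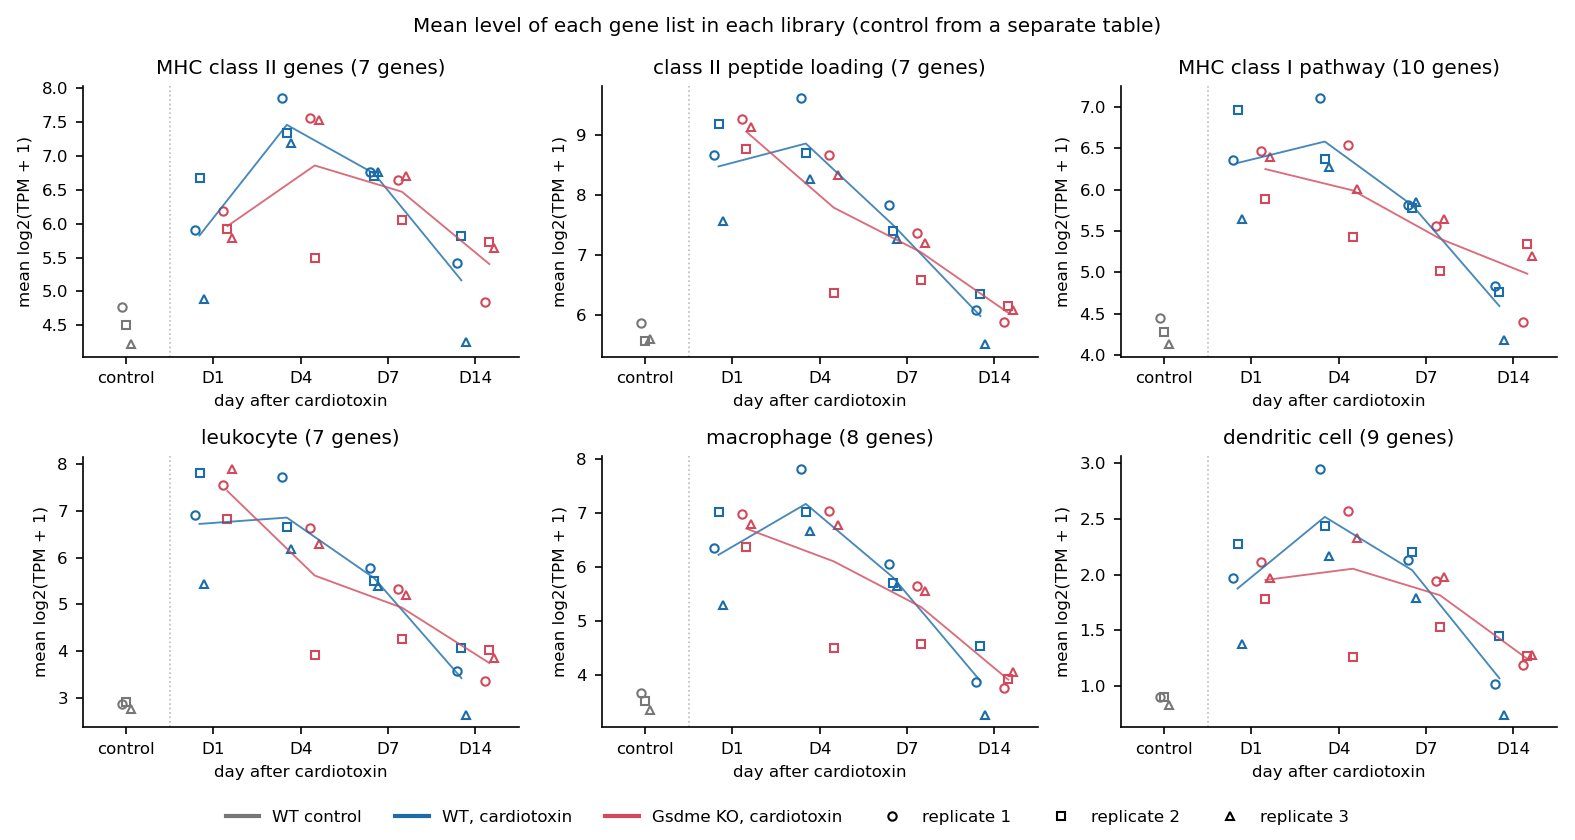
Mean log2(TPM + 1) over the genes of 6 lists in each library by day, with an own vertical range per panel, 3 libraries per group and lines through the group means. The class II mean of WT goes from 5.83 on D1 to 7.46 on D4, whereas the leukocyte mean goes from 6.72 to 6.85.

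Within an injured library Cd74 and the 3 chain genes kept proportions that varied little next to their levels. Cd74 was 1.70 to 2.08 times H2-Ab1 over the 24 injured libraries, H2-Aa was 0.656 to 0.907 times and H2-Eb1 0.558 to 0.742 times H2-Ab1. The extremes of these 3 ratios were thus at most 1.38-fold apart, over libraries in which H2-Ab1 itself differed 14.0-fold. H2-Aa per H2-Ab1 still differed by day, at 0.656 to 0.722 in the D1 libraries and 0.761 to 0.907 in the later injured libraries, without overlap. This difference was not tested. In KO D4 replicate 2, where levels were low, H2-Aa was 0.776 times and Cd74 1.94 times H2-Ab1, inside the range of the other injured libraries. In control muscle H2-Aa was 0.890 to 1.02 times H2-Ab1, above the WT D1 range of 0.674 to 0.722 in the same table, and Cd74 was 2.35 to 2.42 times H2-Ab1, above 1.70 to 1.98 on WT D1.

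The peptide editor did not keep a fixed proportion to the chains it acts on. H2-DMa was 0.109 to 0.157 times H2-Ab1 in the 6 D1 libraries of both genotypes, 0.0825 to 0.107 times in the 6 D4 libraries and 0.0603 to 0.0759 times in the 6 D7 libraries. These ranges did not overlap between D1, D4 and D7. On D14 the ratio was 0.0684 to 0.0942 and overlapped with both D4 and D7. H2-DMb1 per H2-Ab1 was 0.102 to 0.132 on D1, 0.0617 to 0.0738 on D4 and 0.0520 to 0.0630 on D7. Its D4 and D7 ranges overlapped. The ratio of the 2 editor chains to each other stayed between 0.679 and 0.992 in the injured libraries. In control muscle H2-DMa was 0.122 to 0.161 times H2-Ab1, which overlapped with 0.109 to 0.157 in WT D1 in the same table. H2-DMb1 was 0.0737 to 0.0975 times H2-Ab1 in control muscle, below 0.102 to 0.125 in WT D1. These ratios were chosen after their values were seen and were not tested.

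Set against Tyrobp, an adaptor gene of myeloid cells, H2-Ab1 had a higher mean ratio on each later day in both genotypes. H2-Ab1 per Tyrobp was 0.214 to 0.685 in the 6 D1 libraries, 1.22 to 2.80 on D4, 2.43 to 4.82 on D7 and 4.11 to 5.69 on D14. It was 3.14 to 3.92 in control muscle and 0.505 to 0.685 in WT D1 in the table of both. So the ratio was lowest on D1, and the D14 libraries lay above the controls, although the latter stand in another table. The WT and KO libraries overlapped on D4, D7 and D14 and did not on D1, with 0.506 to 0.685 in WT and 0.214 to 0.462 in KO. With 3 against 3 libraries an exact two-sided permutation test cannot go below p = 0.1. Set against the macrophage complement gene C1qa, H2-Ab1 was at 0.921 to 1.56 on D1 and 1.03 to 1.76 on D4, which overlap, and at 2.02 to 3.75 on D14. Set against B2m, the light chain gene of class I molecules, H2-Ab1 was at 0.148 to 0.255 on D1 and 0.340 to 0.748 on D4.

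**Figure D5:**
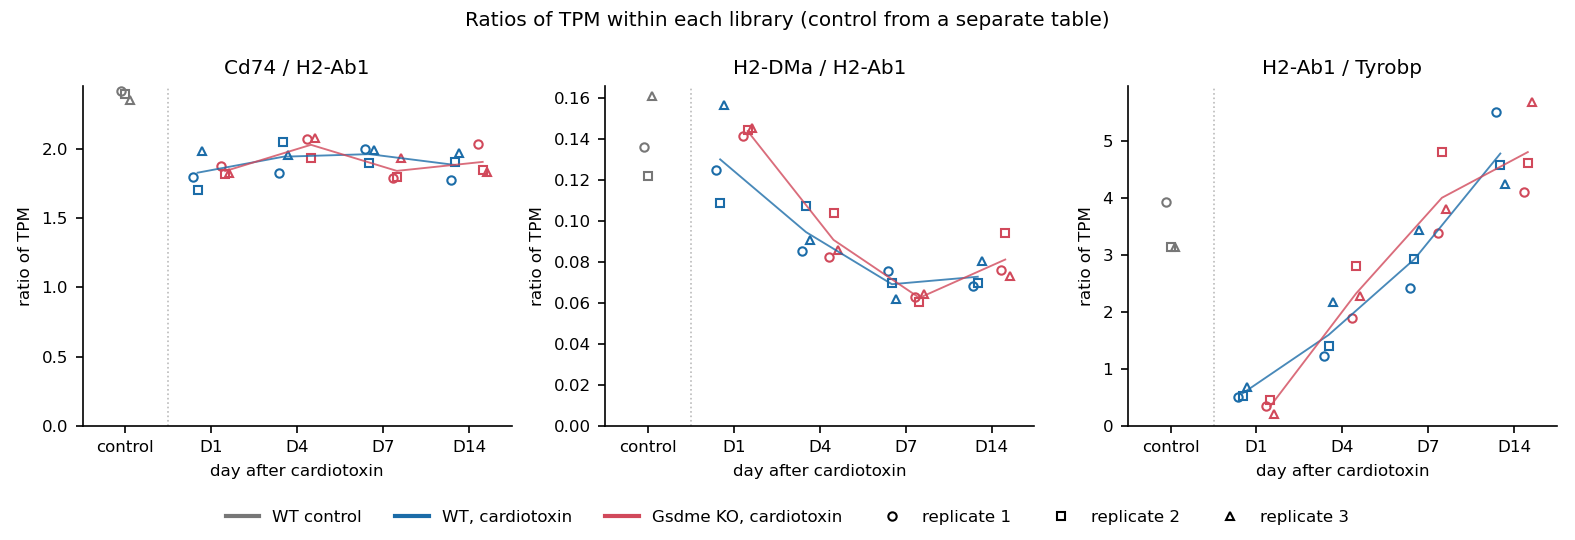
Ratios of TPM within each library by day, for Cd74 to H2-Ab1, H2-DMa to H2-Ab1 and H2-Ab1 to Tyrobp, with 3 libraries per group and lines through the group means. Over the injured libraries the first is level at 1.70 to 2.08, the second is highest on D1, and the third is lowest on D1 and reaches 5.69 on D14. In control muscle the second is 0.122 to 0.161.

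Other class II chain genes were much lower. H2-Oa and H2-Ob, which encode the inhibitor of H2-DM, reached at most 3.48 and 2.40 TPM, both in WT D4 replicate 1. H2-DMb2 averaged 2.04 ± 1.45 TPM (SD, n = 3) in WT D1 and 4.27 ± 1.27 TPM (SD, n = 3) in WT D4. H2-Eb2 stayed at or below 0.90 TPM, and H2-Ea, the alpha chain gene of I-E that mice of the b haplotype do not transcribe, was listed at 0 in every library. Of the 3 chains that passed the filter, H2-DMb2 fell from D7 to D14 in WT (log2 difference −0.96), and 0 of 3 were called in any genotype comparison. At an unadjusted limma p under 0.05, 1 of 3 passed in KO against WT on D4 and 0 of 3 in the other 4 genotype comparisons.

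Among the 7 factors of class II promoters, Rfx5 rose and Rfxap fell from D1 to D4 in WT, with log2 differences of 1.01 and −0.55. Rfx5, a DNA-binding subunit of RFX, averaged 3.12 ± 0.445 TPM in WT D1 and 7.27 ± 0.537 TPM in WT D4 (SD, n = 3). Nfya and Rfxank fell from D7 to D14 in WT, with log2 differences of −1.10 and −0.43. The interferon gamma gene Ifng was near 0, with group means of 0.00 to 0.76 TPM and the highest mean in KO D14. Of the 6 tested genes of its pathway, 0 were called between D1 and D4 in WT by limma, while 3 had an unadjusted p under 0.05. From D7 to D14 in WT 2 of 6 were called lower, one being the kinase gene Jak1 with a log2 difference of −0.42. From D1 to D4 in KO Jak1 and the kinase gene Jak2 fell, with log2 differences of −0.51 and −0.96, in a fit that includes KO D4 replicate 2.

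The peptide loading genes had other signs than the class II genes in KO muscle from D1 to D4. Of these 7 genes, Ctsd, Lgmn and Ctsl fell from D1 to D4 in KO, with log2 differences of −1.41, −1.72 and −1.44. In that step all 7 class II genes had positive differences. The values of both include KO D4 replicate 2, and the peptide loading genes were not fitted without it. Ctss, the cathepsin that cuts the invariant chain in macrophages and dendritic cells, averaged 347 ± 239 TPM in WT D1, 644 ± 473 TPM in WT D4, 172 ± 63.5 TPM in WT D7 and 26.5 ± 17.4 TPM in WT D14 (SD, n = 3). It fell from D7 to D14 in WT with a log2 difference of −2.80. In that step 6 of the 7 peptide loading genes fell, all but Ctsl, with a median of −1.53 over the list. From D4 to D7 in WT 3 of the 7 fell, namely Ctsd, Lgmn and Ctsb, with log2 differences of −1.23, −1.63 and −1.39. Of the co-stimulation genes, Cd40 fell from D4 to D7 in WT (log2 difference −1.39), and Cd86 and Cd80 fell from D7 to D14 (−1.28 and −1.37).

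Marker lists of the cells that carry class II were read beside these values. The summed TPM of 8 macrophage genes was 482 to 1554 in WT D1 and 1589 to 3359 in WT D4. The sum over 9 dendritic cell genes was 23.5 to 51.8 in WT D1 and 45.1 to 109 in WT D4, and 0 of its 8 tested genes were called in that step by limma, while 3 had an unadjusted p under 0.05. The sum over 7 B cell genes was 1.99 to 4.23 in WT D1 and 11.0 to 19.4 in WT D4. In KO it was 1.64 to 4.85 on D1 and 1.60 to 8.14 on D4, and on D7 it was 4.01 to 7.66 in WT and 1.71 to 3.57 in KO. The genotypes thus did not overlap in this sum on D4 and D7. On D7, 14.6% of all tested genes did not overlap in that direction. By limma 0 of the 2 tested B cell genes were called on either day. An unadjusted limma p under 0.05 was reached by 1 of 2 on each day, and by 22.7% of all tested genes on D4 and 3.06% on D7. The defining B cell genes Ms4a1 and Pax5 were at or below 0.21 and 0.26 TPM in every library, and the 2 genes of the list that passed the filter, Cd22 and Cd79b, rose with log2 differences of 2.48 and 1.19. Lymph node genes summed to at most 4.50 TPM in any injured library, with Cr2 at or below 0.11 TPM. Cd4, which T cells and some myeloid cells share, rose from D1 to D4 in WT (log2 difference 1.92) and in KO (1.19), whereas Cd3e was at or below 1.59 TPM.

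The tested genes whose levels were most like the mean of the 7 class II genes over the 24 injured libraries were Trappc6a, Rab43, Asap3, Tm7sf3, Itm2b, Tmem119, Tmem176b, Rcn3, Apoe and Creb3l1, with Pearson r from 0.963 down to 0.949 on the log2 scale. Trappc6a averaged 9.50 ± 5.85 TPM in WT D1 and 26.5 ± 3.75 TPM in WT D4 (SD, n = 3). After subtraction of the group means, the most similar were Pld4, Tspo, Agtrap, Pcdhgc3, Fcer1g, Rassf4, Adgre1, Npc2, Spi1 and Gm2a, with r from 0.974 down to 0.950. The 2 lists shared no gene. Both measures describe libraries that share a table and its scaling, and the second is weighted by the few libraries that stood apart.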

How the data were processed

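The deposited values are TPM per gene (transcript abundance scaled to length and library total), computed by the authors for each library from paired-end Illumina reads (SMARTER mRNA-Seq kit) and given in 2 tables, one of 24 injured WT and KO libraries and one of 3 control and 3 WT D1 libraries. The submitters' processing notes name mm10. The aligner and counter are not given in the sources used here. TPM keeps no depth, so the number of libraries sets the precision. Groups were taken from the sample titles.

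Genes with at least 1 TPM in at least 3 libraries were tested (15718 and 13041 genes). limma 3.58.1 in R 4.3.3 was fitted to log2(TPM + 1) with a variance trend, with 8 group means in the injured table and 2 in the other. P-values were adjusted by the Benjamini-Hochberg method over all tested genes of a comparison, with a threshold of 0.05. A fold on this scale understates changes of low genes. For single genes, genotype was permuted exactly within days. The fit was also run on simulated data with independent noise below the observed spread, which does not measure its power in these data. Alternatives were another pseudocount, filter, scaling, weighting, sample set and variance model, the replicate number as a block, and leaving out each library.

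Replicate numbers are shared between groups. Deviations of same-numbered libraries correlated above 0.1 in all 3 pairs only for KO D4 against D1 (r 0.192 to 0.377) and KO D7 against D4 (0.130 to 0.442), and were 0.00213 to 0.0611 for WT D1 against control, as a property of the data and not of the labels.

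The 7 genes, the comparison lists and the tests were chosen with earlier results of these data known. Named genes were the 7 class II genes, Gsdme, the genes of the lists that passed a test or on which a result turned, and the 10 genes most similar in level and in deviation. Sequences came from RefSeq (GRCm38.p6) and positions from GENCODE. One gene of the comparison lists is not reported here.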

Additional observations from a re-analysis of the deposited data

How the results depend on the processing

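The 5 genotype comparisons and the test of genotype by day called 0 of 7 class II genes under every alternative run, including each library left out in turn. The counts for steps between days were less stable. Without a filter on low values, 0 genes were called for WT D14 against D7 and 2 for WT D1 against control. Of all tested genes 10.2% and 25.8% were then called (31.8% and 61.1% before). Median-of-ratios scaling, which moved the median of all genes for WT D1 against control from 0.66 to 0.00180, called 1 for WT D14 against D7, 4 for KO D4 against D1 and 1 for WT D1 against control, with 13.7%, 26.3% and 42.4% of all tested genes called (31.8%, 19.4% and 61.1% before). Quantile normalization called 0, 3 and 1, with 13.4%, 26.7% and 40.1% of all. Library quality weights called 6 for WT D7 against D4, 2 for KO D4 against D1 and 7 for KO D14 against D7, where 67.4%, 13.3% and 50% of all tested genes were called (12.3%, 19.4% and 0.56% before). With only the 2 groups compared, 0 were called for WT D4 against D1 and 1 for WT D7 against D4, with 7.4% and 5.78% of all tested genes called. The cause was not tested. With each library left out in turn, counts ranged from 0 to 7 for WT D4 against D1 and WT D14 against D7, from 2 to 7 for WT D1 against control, from 0 to 4 for KO D4 against D1 and from 0 to 1 for KO D7 against D4. In these fits 13.2% to 22.6% of all tested genes were called for WT D4 against D1. The share was 1.82% to 26.6% for WT D14 against D7 and 43.8% to 69.9% for WT D1 against control. In KO it was 6.97% to 25.3% for D4 against D1 and 0% to 8.75% for D7 against D4. With the replicate block, WT D4 against D1 kept a count of 6, WT D14 against D7 of 7 and KO D4 against D1 of 0 (lowest adjusted p = 0.0788), and WT D1 against control went from 5 to 7 by adding H2-Aa and H2-Eb1. The block changed no other count of calls.

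Signs of genotype differences depended on single libraries. For Cd74 the log2 difference without 1 library ranged from −0.40 to 0.54 on D1 and from −0.26 to 0.057 on average, and it was −0.0209 on D1 with median-of-ratios scaling and 0.12 on average with quality weights. For Ciita on D4 it ranged from −0.97 to 0.0168 without 1 library and was 0.0294 with quality weights, which gave 0.0398 for Ciita on average. Depth is unknown, and the spread between 3 libraries limits what can be detected.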
